A study of Mus musculus with 8 samples.

Results

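The genes described here encode 5 scaffold proteins of the presynaptic active zone: Pclo (piccolo), Bsn (bassoon), Erc2 (also called CAST or ELKS2), Rims1 and Rims2. Their sites were taken by gene name from the authors' deposited table of RNA sites that differed between aged and young mouse cortex cells. They held 28 of the 2055 listed sites, in 5 of the 789 listed genes. Pclo had 17 sites, Erc2 had 5, and Bsn, Rims1 and Rims2 had 2 each. The mice carried APOBEC1-YTH, a cytidine deaminase fused to a YTH domain, a reader of N6-methyladenosine (m6A), so that a C next to m6A is read as U in single cells (scDART-seq). All 8 libraries were of the aged group, as 4 lanes of each of 2 sublibraries, and lanes are not biological replicates. Aged mice were 12 to 14 months old when tamoxifen began, received 20 mg/kg every 24 h for 5 days, and gave dissociated whole cortex 7 days after the last dose. That is the account of the sample labels, which give polyA RNA of fixed whole cells. The series' design text instead describes nuclei sorted for NeuN, a neuronal marker, and total RNA, so whether cells other than neurons and RNA outside the nucleus were measured cannot be told from the labels. The young cells belong to another series and are known here from this table alone. The sources used here do not give their age, the number of mice, the promoter behind the transgene or any control without the fusion.

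The active zone is the patch of presynaptic membrane where synaptic vesicles dock, are primed and fuse. Piccolo and bassoon are giant, related proteins of its cytoskeletal matrix, ELKS/CAST proteins link matrix components to each other, and RIM proteins bind Rab3 on vesicles, Munc13 and calcium channels. m6A is a common internal mark of messenger RNA, found in coding sequence, often in long exons, and near stop codons, and neuronal transcripts carry much of it.

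The sequences below are those of the Pclo sites with the largest differences and with the lowest ratio, of both Bsn sites, and of the Erc2, Rims1 and Rims2 sites whose means differed most. Neighbouring sites 14 to 25 bases apart that went opposite ways are shown in 1 run, and those farther apart are not. Each is read 5′ to 3′ on the RNA strand (GENCODE transcripts, GRCm38, written with T), and capitals mark the edited C. Sites are numbered along each transcript.
Pclo site 12, chr5:14676305-14676329: aagcagagagaaCtggagcagcagc
Pclo site 14, chr5:14676731-14676755: gctgcaaatgaaCgagacgaagtgt
Pclo site 16, chr5:14681848-14681872: gtgcaaactgagCcattgggaacca
Pclo site 17, chr5:14791966-14791990: ccgctgaaagaaCagactgaaagca
Pclo sites 3 and 4, chr5:14521309-14521353: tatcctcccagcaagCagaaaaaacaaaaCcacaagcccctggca
Pclo sites 8, 9 and 10, chr5:14669149-14669212: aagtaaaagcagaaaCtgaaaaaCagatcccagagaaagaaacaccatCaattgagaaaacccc
Pclo site 6, chr5:14539580-14539604: atccaaacaggaCagccccaaagca
Bsn site 1, chr9:108116109-108116133, minus strand: cgtcagagggaaCagcaggacacag
Bsn site 2, chr9:108106410-108106434, minus strand: aaagggtatgaaCgggaacgggaca
Erc2 sites 1 and 2, chr14:28025114-28025164: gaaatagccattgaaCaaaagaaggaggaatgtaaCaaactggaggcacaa
Erc2 site 3, chr14:28040450-28040474: agcagaagtggaCaggttgctggag
Erc2 site 5, chr14:28271602-28271626: cagtgaaaaagaCgcaaacattgcc
Rims1 site 1, chr1:22534119-22534143, minus strand: accgcggatgaaCgggagaggaagg
Rims2 site 1, chr15:39437692-39437716: ctgtgaggaaaaCgaagcgagaaaa

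The authors' table gives 1 value per age and site over 2623 young and 846 aged cells, with no value per mouse or library. No value below therefore has a replicate error, and no test between the ages was added. Shares of methylated cells carry exact binomial (Clopper-Pearson) 95% intervals, which cover counting error over cells only. The read depth at a site is unknown. A cell with no read over a site is counted as unmethylated, so more methylated cells, more cells expressing the gene and more reads per cell cannot be told apart. Every listed site had an adjusted p under 0.05 in the authors' deposited table, at least 25 methylated cells over both ages and an absolute log2 ratio of at least 0.58, so sites with smaller differences were not seen. The median member site had 19 methylated young cells, so many member sites reached 25 cells only with their aged cells. Their counts by direction of the share are not free of that selection. The sources used here do not give the authors' test. What their adjusted p-values measure is thus unknown, and they cannot be read as a spread between mice. The table gives no expression levels, so the labelled tissue could be checked only by which marker genes have a listed site: 4 of 6 for neurons, 1 of 4 for astrocytes, 1 of 4 for oligodendrocytes and 0 of 4 for microglia. The cell types behind the values were not analysed here.

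Of the 28 active zone sites, 20 had a higher mean C-to-U over all cells in the aged group and 8 a lower one. All listed sites were higher at 41.5%, and listed coding sites, the fairer background since every member site lay in coding sequence, at 57.8%. The median log2 ratio of aged over young means was 1.30 for the members, -0.87 for all listed sites and 0.95 for listed coding sites. The share of methylated cells was higher in the aged group at 27 of the 28, against 75.4% of all listed sites and 94.7% of coding sites. This share-based count is close to that of coding sites in general. Within methylated cells, C-to-U was higher at 10 of the 28, against 31.9% of all listed sites and 35.6% of coding sites, again close to the background. The 8 sites with a lower mean were 6 in Pclo and 2 in Erc2, and all 4 sites of the RIM genes and both Bsn sites had a higher mean.

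**Figure D1:**
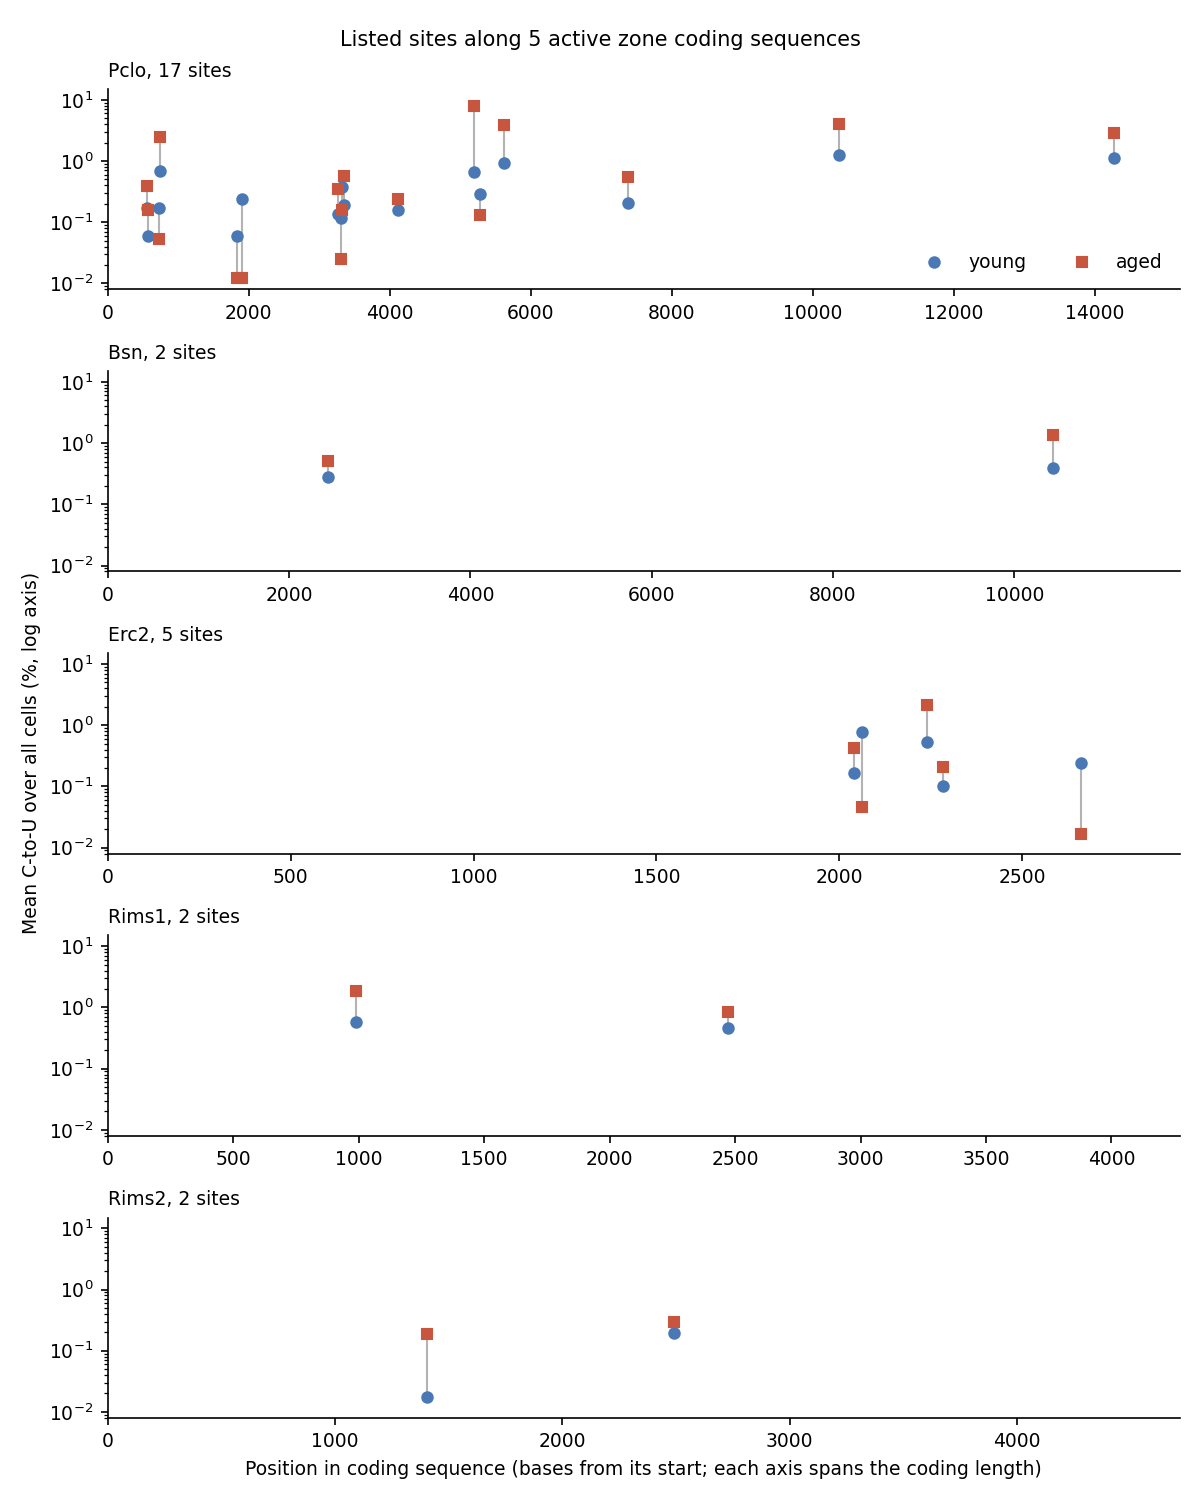
Mean C-to-U over all young cells (circles) and all aged cells (squares) at each listed site, by position in the coding sequence of each gene, on a log axis in percent. Grey lines join the 2 ages of a site; no error is given because the table has 1 value per age. Pclo sites in the first part of its coding sequence went both ways, while 6 of its 7 sites from exon 5 on were higher in aged cells. Listed coding sites were higher at 57.8%, and the division was not tested.

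Pclo, on chromosome 5 (14514918 to 14863459, plus strand, GRCm38), encodes the larger of the matrix proteins. Its 17 sites made it rank 13 among the 789 genes by number of sites. They lay in exons 2, 3, 4, 5, 6 and 19 of 25, all in coding sequence. Mean C-to-U was higher in the aged group at 11 of the 17 and lower at 6, while the share of methylated cells was higher at all 17.

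Pclo site 12, in exon 5 at position 14676317, had the largest difference of the 28. In the authors' deposited table the mean rose from 0.664% in young to 7.99% in aged cells, a 12.0-fold difference (log2 ratio 3.59, adjusted p = 1.7e-27). Methylated cells made up 1.49% (1.06 to 2.03) of young cells, or 39 cells, and 10.8% (8.75 to 13.0) of aged cells, or 91 cells. Within them the converted fraction was 44.7% and 74.3%. Both the number of methylated cells and the extent of conversion in each were thus higher in aged cells at this site, which ranked 6 of all 2055 by increase.

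Of the other Pclo sites with large differences, site 14 in the same exon went from 0.926% to 3.94%, and its share of methylated cells from 2.02% (1.52 to 2.63) to 4.61% (3.30 to 6.25). Site 16, in exon 6, went from 1.25% to 3.95%, and its methylated cells from 2.86% (2.26 to 3.57) to 7.45% (5.77 to 9.43). Site 17, in the 181-base exon 19, went from 1.11% to 2.86%, and its share from 2.36% (1.82 to 3.02) to 3.78% (2.60 to 5.30). These 3 sites were also higher within methylated cells, at 45.8% against 85.4% for site 14, 43.7% against 53.0% for site 16 and 47.0% against 75.5% for site 17. The intervals of the shares at site 17 overlapped between the ages.

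Pclo site 4, in exon 2, differed from these. It had the highest share of methylated aged cells among the 28, at 11.5% (9.40 to 13.8) against 2.21% (1.68 to 2.85) of young cells. Its C-to-U within methylated cells was lower in aged cells, at 21.7% against 30.9%, and its mean went from 0.683% to 2.49%. Site 10, in exon 4, went from 0.192% to 0.567% by mean, and from 0.839% (0.526 to 1.27) to 1.77% (0.996 to 2.91) by share. The edited C of site 10 followed a T and that of site 16 a G, so neither followed the A that the assay marks.

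The lowest ratio in Pclo was at site 6 in exon 3, where the mean went from 0.242% to 0.0125%, 19.4-fold lower in aged cells (log2 ratio -4.28). Its share of methylated cells nevertheless went up, from 0.686% (0.407 to 1.08) to 2.01% (1.17 to 3.20). Within those cells the converted fraction went from 35.3% to 0.621%. The other Pclo sites with a lower mean, sites 3, 5, 8, 9 and 13, had the same form, with a higher share of methylated cells and a lower fraction within them. In aged cells that fraction lay between 0.573% at site 5 and 6.16% at site 13. A higher share was also seen at 300 of the 339 listed coding sites with a lower mean, so this form is common. Where the share is higher and the mean lower, the fraction within must be lower. At site 9 the ratio of aged to young shares was 1.38, with an exact binomial interval of 0.861 to 2.17. Sites 1, 2, 7, 11 and 15 had higher means in aged cells, with log2 ratios from 0.62 at site 11 to 1.42 at site 2.

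The direction of the mean was also counted by part of Pclo. In exons 2 to 4 the mean was higher in aged cells at 5 of 10 sites, with a median log2 ratio of 0.02. From exon 5 to exon 19 it was higher at 6 of 7 sites, with a median of 1.41. Listed coding sites were higher by mean at 57.8%, near the first part. The bases ending in the edited C were GAAC, a sequence taken up below, at 0 of 10 sites in the first part and 3 of 7 in the second. The division into these parts was chosen after the values were seen and was not tested. The median C-to-U within methylated aged cells was 4.67% in the first part and 53.0% in the second, against 24.0% and 43.7% in young cells.

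**Figure D2:**
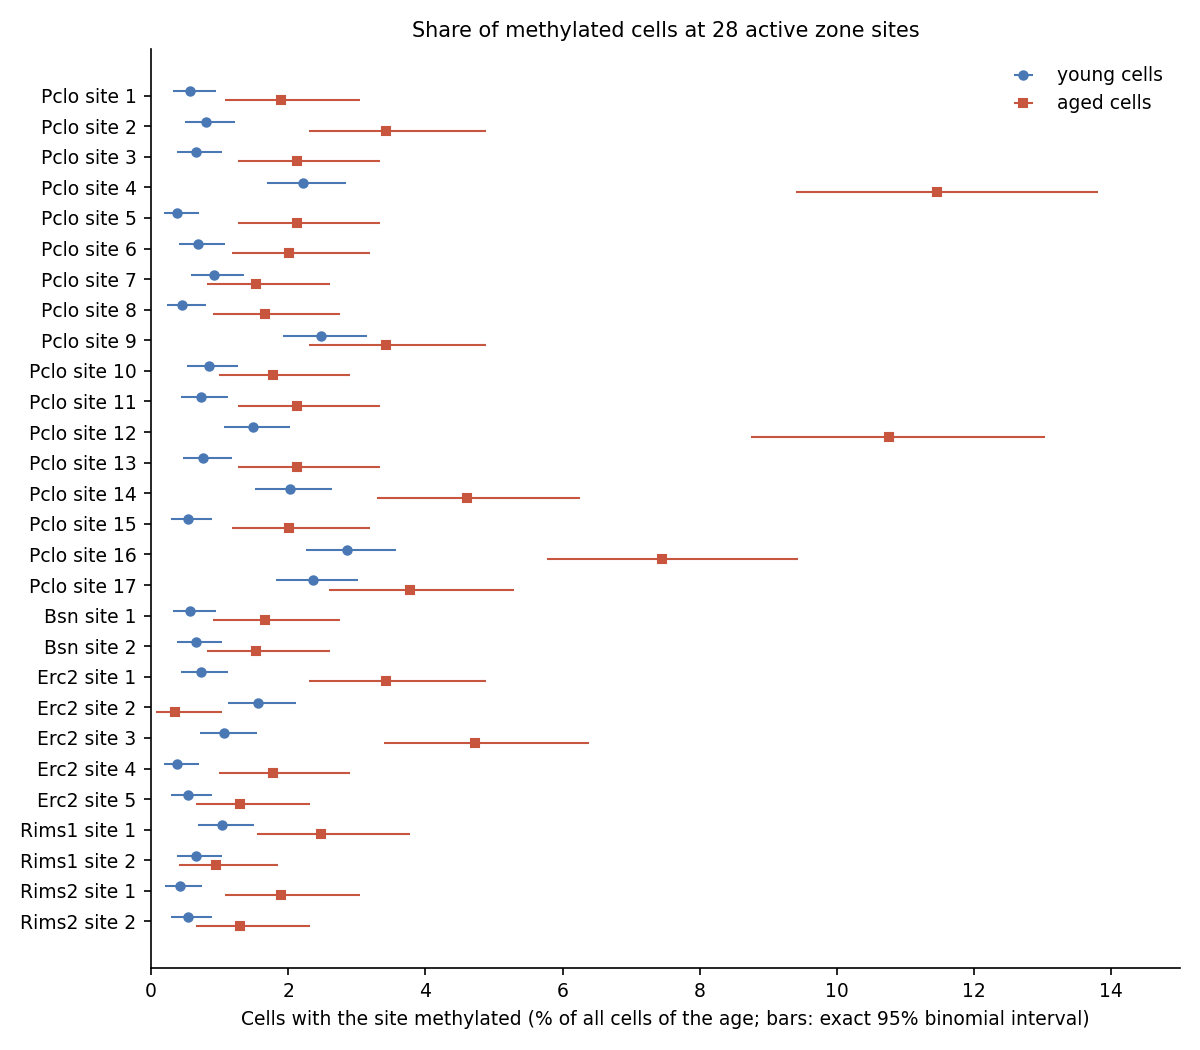
Share of all young cells (circles) and all aged cells (squares) with each of the 28 sites methylated, in percent, with exact 95% binomial intervals over cells. Pclo sites 4 and 12 stand apart in aged cells at 11.5% and 10.8%, and Erc2 site 2 is the only member site with a lower share in aged cells.

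Bsn, on chromosome 9 (108096022 to 108190384, minus strand), encodes the matrix protein related to piccolo. Its coding sequence of 11826 bases held 2 listed sites, or 0.169 per 1000 coding bases, against 1.12 in Pclo. Site 1, in the 6642-base exon 5, went from 0.278% to 0.518% by mean, with 15 young and 14 aged methylated cells. Those were 0.572% (0.320 to 0.941) and 1.65% (0.908 to 2.76) of cells. Site 2, in exon 6, went from 0.394% to 1.35% (adjusted p = 3.41e-09 in the authors' deposited table). Its share of methylated cells went from 0.648% (0.378 to 1.04) to 1.54% (0.821 to 2.61). The shares of the 2 Bsn sites were close to each other at both ages. Within methylated cells the sites went opposite ways, from 48.5% to 31.3% at site 1 and from 60.8% to 88.0% at site 2, the highest aged fraction among the 28.

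Erc2, on chromosome 14 (27622428 to 28478537, plus strand), encodes an ELKS/CAST coiled-coil protein. Its 5 sites lay in exons 11, 13 and 17 of 20, late in the coding sequence, between 69.6% and 90.8% of its length. With 1.71 sites per 1000 coding bases it had the highest density of the 5 genes. Site 3 had its largest increase, from 0.542% to 2.18% by mean and from 1.07% (0.710 to 1.54) to 4.73% (3.40 to 6.38) by share. Site 1 went from 0.167% to 0.431% and site 4 from 0.102% to 0.210%. Within methylated cells all 5 Erc2 sites were lower in aged cells, from 46.0% against 50.7% in young cells at site 3 to 1.27% against 46.0% at site 5. Lower was also the commoner direction elsewhere, at 18 of the 28 members and 513 of 797 listed coding sites with a methylated aged cell. The Erc2 count was not tested.

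Erc2 site 2 was the only one of the 28 with a lower share of methylated cells in aged mice. It was methylated in 41 young cells, 1.56% (1.12 to 2.11), and in 3 aged cells, 0.355% (0.0732 to 1.03). The ratio of aged to young shares was 0.227, with an exact binomial interval of 0.0449 to 0.711. Its mean went from 0.781% to 0.0469%, a log2 ratio of -4.06 that rests on those 3 aged cells. Site 1, 20 bases upstream in the same exon, had a higher share in aged cells, at 3.43% (2.31 to 4.89) against 0.724% (0.437 to 1.13). The ratio of shares there was 4.73 (2.56 to 8.93). Site 5 went from 0.246% to 0.0165% by mean while its share went from 0.534% (0.292 to 0.894) to 1.30% (0.651 to 2.31), on 14 young and 11 aged cells.

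Rims1, on chromosome 1 (22286251 to 22805994, minus strand), and Rims2, on chromosome 15 (39198261 to 39684372, plus strand), encode RIM proteins. Rims1 site 1, in exon 7 of 37, went from 0.570% to 1.86% by mean. The share of methylated cells was 1.03% (0.679 to 1.49) and 2.48% (1.54 to 3.77), and the fraction within them 55.4% and 75.0%. Rims1 site 2, in the 63-base exon 24, went from 0.468% to 0.831%, with 17 young and 8 aged methylated cells. Its shares of 0.648% (0.378 to 1.04) and 0.946% (0.409 to 1.85) could not be told apart by counting error, with a ratio of 1.46 (0.545 to 3.57). Within methylated cells this site was converted at 72.3% in young cells, the highest young fraction among the 28, and at 87.8% in aged cells.

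Rims2 site 1, in the 926-base exon 4 of 27, had the lowest young mean of the 28, at 0.0176%. It reached 0.187% in aged cells, a 10.6-fold difference (log2 ratio 3.41) at a low level. By share it went from 0.419% (0.210 to 0.749) to 1.89% (1.08 to 3.05), and within methylated cells from 4.19% to 9.87%. Rims2 site 2, in exon 12, went from 0.193% to 0.296%, a log2 ratio of 0.62. Its share went from 0.534% (0.292 to 0.894) to 1.30% (0.651 to 2.31), while C-to-U within methylated cells went from 36.1% to 22.7%. The 2 Rims2 sites were thus both higher by mean and by share, and differed in direction within methylated cells.

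Over the 28 sites, the ratio of aged to young shares had a median of 2.91, against 3.04 for listed coding sites. Its interval lay wholly above 1 at 24 of the 28 sites, against 77.4% of coding sites. It lay below 1 at Erc2 site 2 and held 1 at Rims1 site 2 and Pclo sites 7 and 9. The active zone sites were thus like other listed coding sites in how often methylated cells were more common in the aged group.

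The fraction within methylated cells separated the members more than the share did. At the 8 sites with a lower mean it lay between 0.573% and 13.2% in aged cells. At the 20 sites with a higher mean it lay between 4.64% and 88.0%. Since the mean is the share times this fraction, the separation follows from how the means are built. A fraction under 5% was seen at 1 of 28 sites in young cells (Rims2 site 1) and at 7 of 28 in aged cells, 6 in Pclo and 1 in Erc2. Among listed coding sites it was seen at 6.84% in young and 41.4% in aged cells, beside 25.0% of the members in aged cells, a difference that was not tested. The read depth behind these fractions is unknown and its part was not tested.

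**Figure D3:**
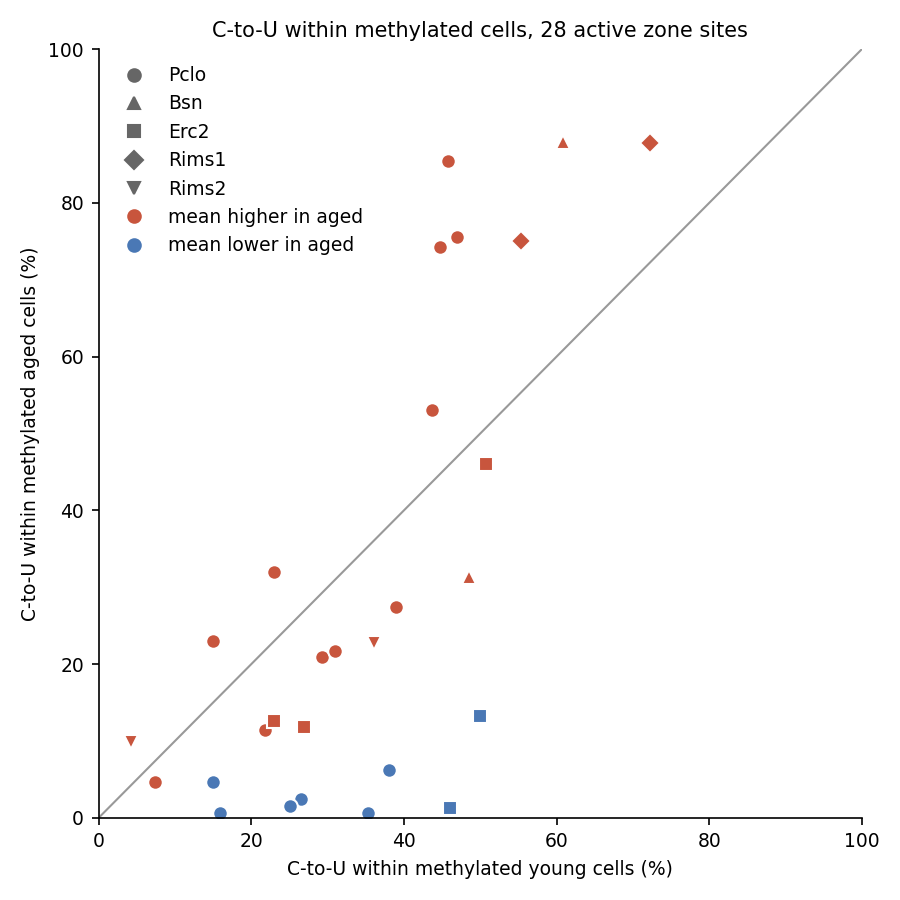
C-to-U within methylated aged cells against that within methylated young cells, in percent, for the 28 sites; marker shapes give the gene and colours the direction of the mean over all cells. The diagonal marks equal values, and the 8 sites with a lower aged mean lie at or under 13.2% in aged cells.

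**Figure D4:**
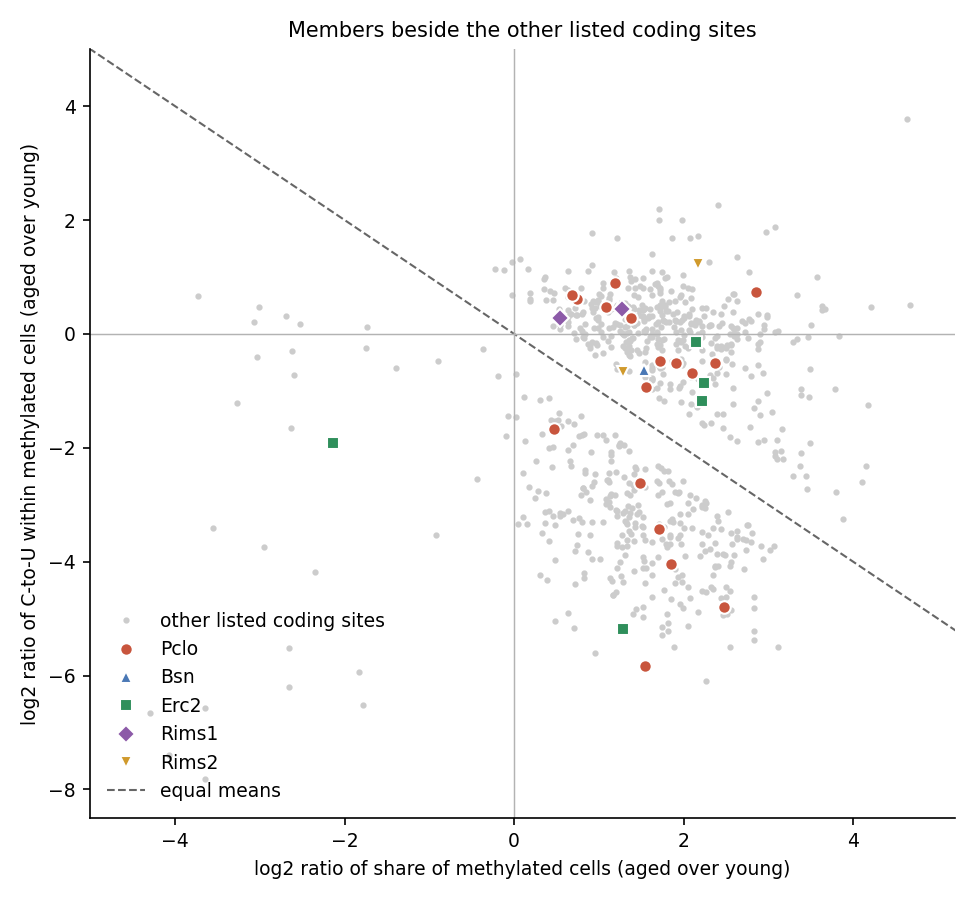
log2 ratio (aged over young) of the share of methylated cells against that of C-to-U within methylated cells, for the 28 member sites and the 769 other listed coding sites with a methylated aged cell (grey). The dashed line marks equal means, and the empty band along it is where the table lists no site because the log2 ratio of means would be under 0.58 in size. Members lie in both grey groups, and 27 of 28 lie to the right of 0.

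All 28 active zone sites lay in coding sequence, against 39.1% of all listed sites, and 0 lay in a 3′ UTR, where 698 other sites of the table were placed. Exons over 500 bases held 19 of the 28, against 30.6% of listed coding sites. The genes differed in this. In Pclo 16 of 17 sites were in such exons, which hold 87.0% of its coding sequence, and in Bsn 2 of 2, with 92.4%. Without Pclo, 3 of 11 member sites were in such exons. In Erc2 0 of 5 sites were in such an exon, and 22.4% of its coding sequence lies there. Rims1 had 0 of 2 sites there, with 5.06% of its coding sequence, and Rims2 1 of 2, with 19.6%. The median distance from a site to the annotated 3′ end of its transcript was 16458 bases in Pclo and 3665 in Erc2. Annotated isoforms differ at several sites: Rims1 site 2 was in 5 of 9 coding transcripts of the gene, and each Erc2 site in 4 of 7. Pclo sites 1 to 15 were in 2 of 3 coding transcripts, and sites 16 and 17 in all 3. Which isoforms the cells expressed was not analysed here. The 25 bases around each of the 28 sites occurred in no transcript of another annotated gene.

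The edited C followed an A at 24 of the 28 sites (85.7%), against 76.9% of the 1981 listed sites that were placed on a C with enough flanking sequence and 80.1% of coding sites. The 4 exceptions were Pclo sites 3, 5, 10 and 16. The bases ending in the edited C were AAC at 18 members (64.3%, against 57.5% of coding sites) and GAC at 4 (14.3%, against 20.0%), read on the RNA strand only. The longer GAAC, which lies within AAC, was at 8 members (28.6%), against 31.2% of coding sites and 16.7% of all listed sites with enough flanking sequence. These were Pclo sites 12, 14 and 17, both Bsn sites, Erc2 site 1, Rims1 site 1 and Rims2 site 2, of which all but Rims2 site 2 are printed above.

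All 8 GAAC sites had a higher mean in aged cells, against 12 of the 20 other members. The same held over the table: 222 of 251 coding sites with GAAC (88.4%) were higher by mean, against 243 of 553 without it (43.9%). Within methylated cells, 5 of the 8 GAAC members were higher in aged cells, with a median of 74.7% in aged and 46.4% in young cells. The other 20 members had medians of 11.6% and 28.1%, and 5 were higher. Among all listed coding sites 61.8% of those with GAAC and 23.6% of those without it were higher within methylated cells, close to the members' 62.5% and 25%. Among members with GAC, 1 of 4 was higher by mean (Erc2 site 3). The share over listed coding sites with GAC was not computed. Coding sites without GAAC, which include those with GAC, were higher at 43.9%. These motifs were compared after the values were seen, and no test was made. The coding sequences of the 5 genes hold 144 GAAC, of which 8 (5.56%) were listed, 613 AAC, of which 18 (2.94%) were listed, and 630 GAC, of which 4 (0.635%) were listed. Pclo holds 51 GAAC and Bsn 34, of which 3 and 2 were listed, or 5.88% in each, although Pclo had more sites in all.

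Neighbouring sites did not always go the same way. The 5 genes held 9 pairs of adjacent sites within 100 bases, 8 to 91 bases apart, and the mean went opposite ways in 5 (55.6%). Over all listed genes this was so in 33.0% of 794 such pairs. Those 794 include the 9 and are not limited to coding sequence, so they are not a matched background. Some of the 9 pairs share a site, and the difference was not tested. Pclo sites 3 and 4 lay 14 bases apart in the sequence printed above. Site 3 went from 0.172% to 0.0523% and site 4 from 0.683% to 2.49%. By share of methylated cells both were higher in aged cells, with site 3 at 0.648% (0.378 to 1.04) and 2.13% (1.27 to 3.34). Pclo sites 8, 9 and 10 lay within 33 bases, and sites 8 and 9 were lower by mean while site 10 was higher. By share, the Erc2 pair of sites 1 and 2 was the only 1 of the 9 pairs that went opposite ways. Such sites can lie on the same reads, so they are not independent measurements.

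Of 55 other genes of the active zone and of vesicle release, 17 were listed, with 76 sites. By mean 21 of the 76 sites were higher in aged cells and by share 49, beside 41.5% and 75.4% of all listed sites. The median log2 ratio of means was -1.44. Of these sites 27 lay in coding sequence, 12 of them higher by mean, beside 57.8% of listed coding sites. Another 36 lay in 3′ UTRs, 7 of them higher. The share over all listed 3′ UTR sites was not computed, so that count has no matched background. The 5 scaffold genes had 20 of 28 sites higher, all in coding sequence, so the sets differ in where their sites lie. Most of the 76 sites were in Snap25 and Syt1, and no difference between the sets was tested. By the site with the largest difference, 10 of the 17 genes were higher and 7 lower, and no such share over all listed genes was computed. Snap25, a membrane fusion protein gene, had 2 of 27 sites higher, and Syt1, a calcium sensor of release, 6 of 24. Dnm1, the dynamin of vesicle retrieval, had 4 of 4 higher, all in coding sequence. Its largest difference was from 3.22% to 5.92% by mean and from 9.38% (8.29 to 10.6) to 13.6% (11.4 to 16.1) by share. Unc13a, the Munc13 priming factor that RIM proteins bind, was chosen after its values were seen. It had 1 site, in coding sequence, methylated in 122 young and 2 aged cells, a ratio of shares of 0.0508 (0.00609 to 0.188). Among the 804 listed coding sites, 43 had no higher share in aged cells.

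Among the 26 other genes with at least 10 listed sites, Rbm25, a splicing regulator, was nearest to Pclo in its median log2 ratios of mean and share. Its medians were 1.33 and 1.77, against 1.36 and 1.55 in Pclo, a distance of 0.214 over 2 ages. Snhg14, a noncoding RNA, followed at a distance of 1.08 and Luc7l3, a splicing factor, at 2.05. Their median log2 ratios of means were 2.12 in Snhg14 and -0.67 in Luc7l3, so Luc7l3 was opposite in sign to Pclo. Of the Rbm25 sites 25 of 26 lay in coding sequence, as did all 17 of Pclo, while 0 of 16 did in Snhg14.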

How the data were processed

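Single cells from aged APOBEC1-YTH mouse cortex were sequenced after split-pool barcoding, per the labels' protocols. The submitters' processing notes list STAR 2.7.5 and mm10, and sites were found with the Bullseye pipeline according to the series' design text. The sources used here give neither read filters nor the authors' test. Only the authors' deposited table of differing sites was used. It holds, per the file headers, counts of methylated cells, the percent of cells methylated, C-to-U fractions (printed as percent), p-values with adjusted p-values, and a log2 ratio of young over aged means, deposited by the authors and turned here to aged over young.

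The deposited counts and percentages gave 2623 young and 846 aged cells at every site. Positions were read as counted from 0 and are printed counted from 1. Read so, the edited base was C at 1982 of 2049 placed sites and at all 28 members, while the other reading gave 209 and 0. Each site was located on the GENCODE M21 annotation (GRCm38), using the highest-ranked transcript with an exon at the site, and 6 genes matched by an older name. Exact binomial 95% intervals came from scipy 1.17.1. The interval of a ratio of shares came from the exact split of methylated cells between the ages. Site placement and intervals were checked on constructed cases. Paralog coding sequences were aligned with mafft 7.526.

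All sites of the 5 genes were used. Values are given for the 6 Pclo sites with the largest differences, those with its lowest and highest ratios, and every site of the other genes. Other Pclo sites named for their neighbours or bases were chosen after their values were seen. Members and lists were chosen with earlier results of these data known.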

Additional observations from a re-analysis of the deposited data

How the results depend on the processing

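With 1 value per age and site, no replicate could be left out. No paired analysis was possible because the results come from no test. Of 28 recomputed values, 19 stayed within the 95% binomial interval of the reported percentage, or within 0.1 of the reported median log2 ratio, and 9 did not. That interval treats sites as independent, which sites on the same reads are not. Most settings kept a part of the same sites, so staying within the interval says little about stability. With at least 50 methylated cells over both ages, 8 sites were left, of which 87.5% had a higher aged mean and 100% a higher aged share, and the median log2 ratio of means was 1.76 against 1.30. By share, 100% were also higher with an adjusted p under 0.01 (21 sites), with at least 10 methylated aged cells (26) and with 1 site per run within 100 bases (19), since each leaves out Erc2 site 2. The floor on aged cells selects on the aged share itself, so its outcome was partly fixed in advance and is no check of direction. The median log2 ratio was 1.41 with 1 site per run and 1.03 without Pclo. With positions counted from 1, 0% of members had an edited C after A, as no member base was then C. The number of methylated cells, from 3 to 97 aged cells at a site, limits the precision.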

Other observations

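The paralogs of the scaffold genes share some of the sequence around the sites. In alignments of the coding sequences of Pclo with Bsn, Rims1 with Rims2 and Erc2 with Erc1, 7 of the 28 windows of 25 bases had no gap and at least 15 identical bases. These were all 5 Erc2 windows and 2 in Pclo, and 0 of the RIM or Bsn windows. The paralog had a C at the edited position in 3 of the 7, and after an A in 2 of those. The windows of those 2 sites are shown, with the aligned base in capitals.
Pclo site 13: aaagaccaaagaCgccacccagtaa
Bsn at Pclo site 13: aacgctccaagaCaccacccagtaa
Erc2 site 3: agcagaagtggaCaggttgctggag
Erc1 at Erc2 site 3: aacagaagttgaCcgtctcttggaa
Pclo site 13 shared 20 of 25 bases with Bsn, and the table lists no Bsn site there. Its mean C-to-U went from 0.290% in young to 0.131% in aged cells, with 20 young and 18 aged methylated cells. Erc2 site 3 shared 17 of 25 bases with Erc1, which has no listed site. The table lists only sites that differ between the ages, so it does not show whether the paralogs were methylated there.

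The edited C was the first base of its codon at 13 of the 28 member sites, the second at 10 and the third at 5. Among the 804 listed coding sites it was the first at 321, the second at 156 and the third at 327. In Erc2 it was the third at 4 of 5 sites, and in Pclo at 1 of 17.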
